A study of Homo sapiens with 12 samples.

Results

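RNA polymerase II (Pol II) subunits and Mediator were examined as the genes that encode them in HCT116 cells. The members were the protein-coding genes of the count table whose GENCODE v44 name starts with POLR2, or is MED followed by a number with at most 1 letter, together with *CCNC*, *CDK8* and *CDK19*. By this rule 48 of the 58037 annotated genes were members, 15 with a POLR2 name and 33 of Mediator. A further v44 gene named *POLR2J3* also met the rule but its identifier was not among those of the table. HCT116 is an established human colorectal carcinoma cell line, here without an engineered mutation (genotype WT in the labels). RNA was selected for poly(A) from cells kept for 8 h with DMSO, with the MDM2 antagonist Nutlin-3a at 10 μM, with the CDK9 inhibitor NVP-2 at 20 nM, or with Nutlin-3a and NVP-2 together at these doses, and 3 samples carry the label of each of the 4 groups. In the table, however, the 12 columns were copies of each other, and 0 genes differed between them. They were therefore taken as 1 profile, for which the treatment is not known. No difference between treatments and no spread between replicates could be measured, and no test was run. All intervals below cover counting error only.

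The profile held 22720718 counts, of which 10.4% lay on mitochondrial genes. Levels are given as RPKM, the number of reads per kilobase of gene length in every 1000000 counts. Of 9 epithelial markers, 5 reached 1 RPKM, with up to 514 RPKM, namely *EPCAM*, *CDH1*, *KRT8*, *KRT18* and *KRT19*. *CDH17*, *CDX2* and *VIL1* stayed under this level and *CDX1* had 0 counts, which allows up to 0.132 CPM (counts in every 1000000, here from 3 counts). None of the 4 fibroblast, 3 leukocyte and 2 endothelial markers reached 1 RPKM (0 in each list), with highest values of 0.972, 0.0662 and 0.0967 RPKM. As RNA was measured in bulk, a level per cell and the share of cells with the transcript cannot be told apart.

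Pol II transcribes the protein-coding genes of the nucleus. Its largest subunits RPB1 and RPB2 form the active center, RPB3 and RPB11 the assembly platform, and RPB4 and RPB7 a stalk that can dissociate, whereas RPB5, RPB6, RPB8, RPB10 and RPB12 are also built into Pol I and Pol III. Mediator bridges activators at enhancers and Pol II at promoters. It consists of head, middle and tail modules held together by MED14, and of a kinase module of CDK8 or CDK19, cyclin C, MED12 or MED12L and MED13 or MED13L, which binds reversibly and blocks the contact with Pol II while bound. The carboxy-terminal domain (CTD) of RPB1 carries the heptad repeats that CDK7, CDK8 and CDK9, the target of NVP-2, phosphorylate.

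The CTD is shown first because it is where these kinases and Pol II meet. In the canonical *POLR2A* transcript of GENCODE v44, with a coding sequence of 5913 nt, the consensus heptad was encoded 21 times, and 15 of these heptads followed each other directly. The same heptad was mostly written in different codons, and the 21 copies used 20 different stretches of 21 bases. The first 14 of the uninterrupted heptads lie in exon 29, at chr17:7513170-7513463 of hg38 on the plus strand. In the sequence, capitals mark the tyrosine codon that opens each heptad.
POLR2A: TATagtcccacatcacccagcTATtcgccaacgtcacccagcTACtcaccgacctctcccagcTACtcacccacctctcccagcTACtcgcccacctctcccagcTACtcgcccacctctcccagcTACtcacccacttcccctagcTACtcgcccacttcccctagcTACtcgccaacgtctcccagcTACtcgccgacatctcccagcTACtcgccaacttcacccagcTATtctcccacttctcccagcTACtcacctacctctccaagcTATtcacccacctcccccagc
Over all 21 consensus heptads, this codon was TAC in 15 and TAT in 6. Of the 6238 windows of 75 bases, the length of a read, in the *POLR2A* transcript, 0 occurred in a transcript of another gene.

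The kinase-module paralogs are shown because their comparison requires that reads tell them apart. For each pair, the 75-base windows of the canonical coding sequences with the fewest differences were searched without gaps, and capitals mark the bases that differ within a pair. The closest windows of *CDK8* (chr13:26382859-26385272, plus strand, spliced from exons 5 and 6) and *CDK19* (chr6:110632100-110638661, minus strand, exons 5 and 6) differed at 10 bases.
CDK8: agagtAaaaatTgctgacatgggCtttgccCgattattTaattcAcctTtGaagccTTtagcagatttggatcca
CDK19: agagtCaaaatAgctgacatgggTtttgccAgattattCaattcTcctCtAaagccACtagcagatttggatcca
Those of *MED12* (chrX:71118818-71119411, plus strand, exons 1 and 2) and *MED12L* (chr3:151086990-151116376, plus strand, exons 2 and 3) also differed at 10 bases.
MED12: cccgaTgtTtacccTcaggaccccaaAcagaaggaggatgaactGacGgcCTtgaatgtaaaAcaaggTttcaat
MED12L: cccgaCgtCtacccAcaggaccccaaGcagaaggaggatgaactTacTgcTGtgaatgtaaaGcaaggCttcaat
*MED13* (chr17:61982685-61982759, minus strand, exon 16) and *MED13L* (chr12:115991522-115991596, minus strand, exon 17) differed at 11 bases or more in every window.
MED13: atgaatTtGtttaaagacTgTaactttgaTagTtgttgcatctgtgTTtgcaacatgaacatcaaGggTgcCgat
MED13L: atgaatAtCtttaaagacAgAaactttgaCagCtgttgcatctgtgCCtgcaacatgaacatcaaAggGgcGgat
The longest stretch of identical coding bases was 19 in the *CDK8* pair, 21 in the *MED12* pair and 20 in the *MED13* pair, well short of a read.

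The RPB11 genes differ from these pairs. *POLR2J* lies on chromosome 7 from 102473128 to 102478922, *POLR2J3* from 102537918 to 102572653 and *POLR2J2* from 102665368 to 102671663, all on the minus strand. Their coding sequences start alike, at chr7:102476249-102478860 in *POLR2J*, chr7:102668983-102671601 in *POLR2J2* and chr7:102569903-102572521 in *POLR2J3*, each in exons 1 and 2. *POLR2J* has 3 additional bases, marked by capitals in one of the places where they can be set.
POLR2J: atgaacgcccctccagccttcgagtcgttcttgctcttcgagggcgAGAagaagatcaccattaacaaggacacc
POLR2J2: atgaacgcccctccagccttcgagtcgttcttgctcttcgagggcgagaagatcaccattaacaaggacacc
POLR2J3: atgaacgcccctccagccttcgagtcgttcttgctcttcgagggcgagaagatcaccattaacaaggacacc
Elsewhere *POLR2J* and *POLR2J2* share up to 221 coding bases without a difference. Of the 75-base windows of the canonical transcripts, 28.7% in *POLR2J*, 80.8% in *POLR2J2* and 60.8% in *POLR2J3* also occurred in transcripts of genes elsewhere in the genome, so that their counts are uncertain.

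Among the 12 core subunits of Pol II, 11 were abundant and 1, *POLR2F*, was nearly absent from the table. *POLR2L*, which encodes the small shared subunit RPB10, had the highest level with 158 RPKM (95% Wilson interval 153 to 163). The median of the 12 subunits was 38.9 RPKM, against 0.589 RPKM over all 19629 protein-coding genes, and 10 of the 12 were among the top 10% of these genes. RPKM values were computed with the merged exons of each gene as its length.

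The genes of the active center were both among the high members. *POLR2A* (RPB1) had 6384 counts and 33.6 RPKM (32.8 to 34.5), and *POLR2B* (RPB2) had 5668 counts and 42.3 RPKM (41.3 to 43.5). The level of *POLR2B* was 1.26 times that of *POLR2A* (exact 95% interval 1.21 to 1.31), and 1.48 times with canonical transcripts. Of the assembly platform, *POLR2C* (RPB3) had 3121 counts and 37.5 RPKM (36.2 to 38.8). Its partner *POLR2J* (RPB11) had 1081 counts and 50.8 RPKM (47.8 to 53.9), with the uncertainty about shared reads given above. With canonical transcripts the order of this pair reversed, at 77.9 RPKM for *POLR2C* and 50.8 RPKM for *POLR2J*. *POLR2I*, which encodes RPB9, a subunit involved in transcriptional fidelity, had 866 counts and 33.5 RPKM (31.4 to 35.8). This was 0.997 times the level of *POLR2A* (0.927 to 1.07), and the intervals of the levels overlapped. With canonical transcripts *POLR2I* was 1.93 times as high as *POLR2A*.

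The genes of the stalk were unequal per length of the merged exons or of the canonical transcript. *POLR2G* (RPB7) had 1740 counts and 40.3 RPKM (38.4 to 42.2), close to the other core subunits. *POLR2D* (RPB4) had 1362 counts and 11.5 RPKM (10.9 to 12.1), or 0.341 times the level of *POLR2A* (0.322 to 0.362). With the length of the canonical transcript *POLR2D* was again the lower with 11.9 RPKM, against 96.8 RPKM for *POLR2G*. These transcripts have 5038 bases in *POLR2D* and 791 in *POLR2G*, but the coding sequences have 429 and 519 bases. Per coding base the levels of these genes lay close together.

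The subunits shared with Pol I and Pol III spanned the whole range. *POLR2E* (RPB5) had 6936 counts, the most of any member, and 62.7 RPKM (61.2 to 64.2). *POLR2K* (RPB12) followed with 48 RPKM (45.9 to 50.3), and *POLR2H* (RPB8) with 36.1 RPKM (34.7 to 37.5). *POLR2L* exceeded *POLR2A* 4.7 times (4.52 to 4.89). In contrast, *POLR2F* (RPB6, chromosome 22 from 37952607 to 38041915) had only 24 counts and 0.151 RPKM (0.101 to 0.224), the lowest level of the 48 members with merged exons. With the canonical transcript it had 0.51 RPKM, and *MED12L* was the lowest with 0.428 RPKM. In GENCODE v44, 0% of its exons overlapped another gene on the same strand, and 0 of its 1996 windows of 75 bases occurred in another gene. The counts were made with GENCODE version 25, whose gene models were not used here, and the part of overlapping models of that version in this count was not tested. Without *POLR2F*, the levels of the 11 remaining core subunits lay within a 13.8-fold range.

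The 3 other genes with a POLR2 name were low. *POLR2M* encodes Gdown1, a protein that binds Pol II without being a core subunit, and had 249 counts and 1.68 RPKM (1.49 to 1.91). Of the exons of its canonical transcript, 31.6% overlapped genes of the table on the same strand, namely the read-through gene *GCOM1*. The RPB11 copies *POLR2J3* and *POLR2J2* had 25 and 10 counts, and 0.345 (0.234 to 0.509) and 0.21 RPKM (0.114 to 0.386). The corresponding overlaps were 51.7% for *POLR2J3* and 89.3% for *POLR2J2*. The part of these overlaps in the low counts was not tested.

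**Figure D1:**
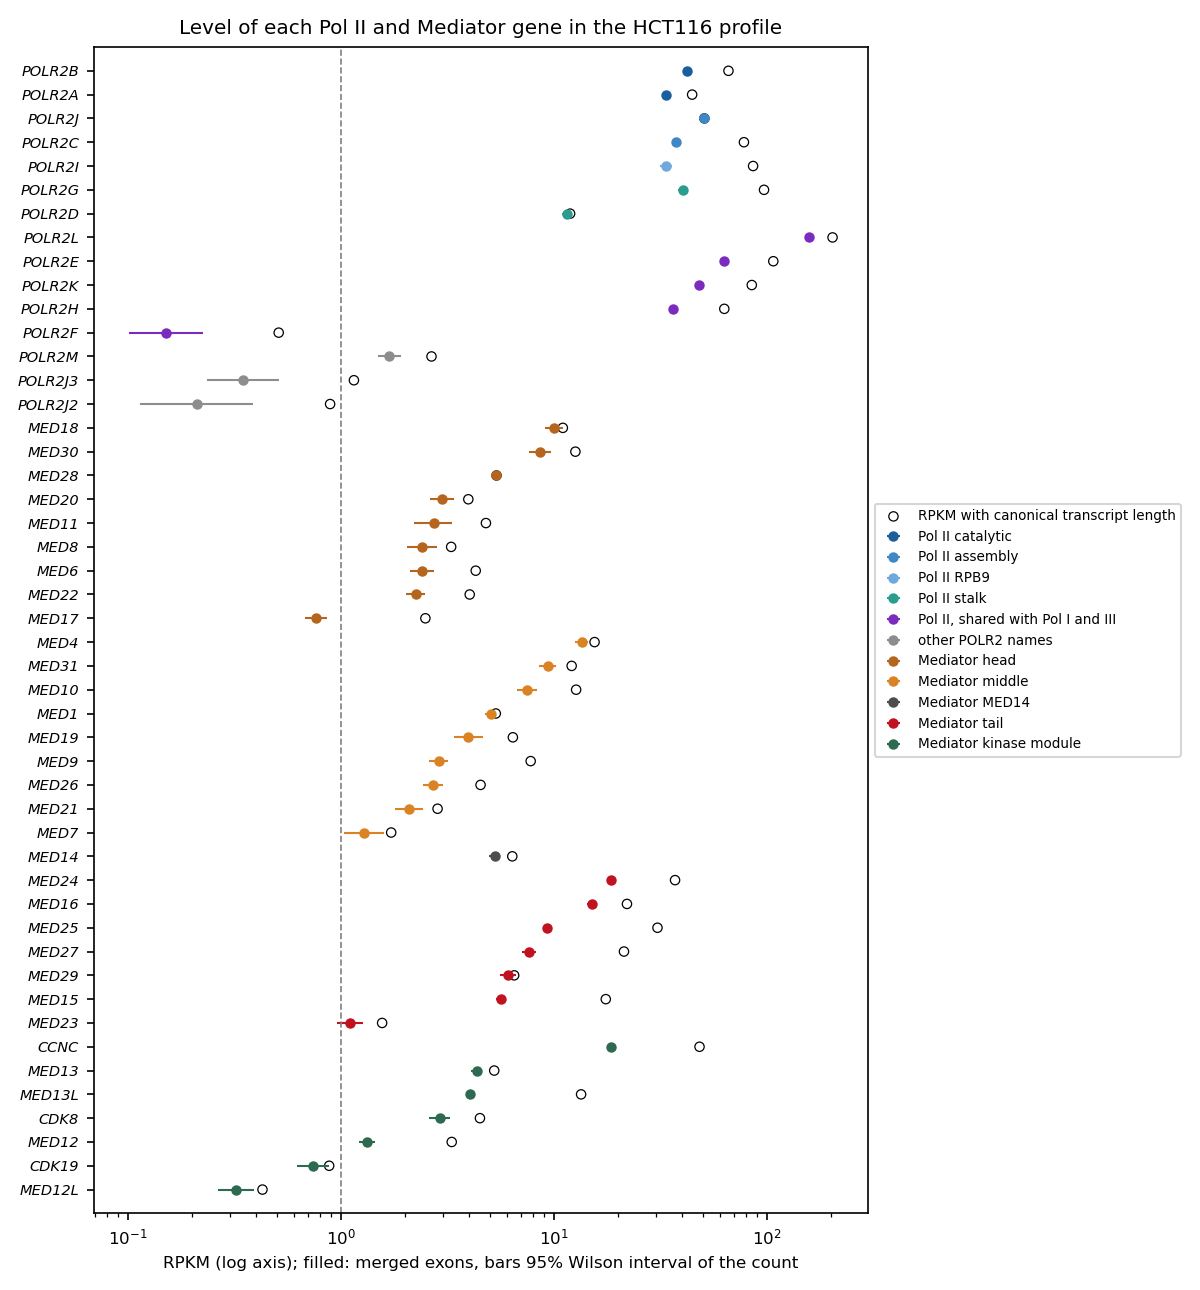
RPKM of the 48 members on a log axis, grouped by role, with filled points for the merged exon length (bars: 95% Wilson interval of the count) and open points for the canonical transcript length. The dashed line marks 1 RPKM. Of the Pol II core subunits 11 lie between 11.5 and 158 RPKM and *POLR2F* lies at 0.151 RPKM, and the Mediator genes lie between 0.322 and 18.5 RPKM.

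Mediator genes were expressed at lower levels than those of Pol II. The median of the 33 genes was 4.02 RPKM, 9.66-fold under that of the core Pol II subunits. With merged exons 0 of them were in the top 10% of protein-coding genes, but *MED24* and *CCNC* narrowly missed it, each above 89.9% of these genes. Only *MED24*, *CCNC*, *MED16* and *MED4*, 4 of the 33, exceeded *POLR2D*, the second lowest core subunit, with merged exons. With canonical transcripts 11 of the 33 did. At or above 1 RPKM, the limit of expression in the methods of the study, were 30 Mediator genes and 42 of all 48 members (87.5%), compared with 44.6% of the protein-coding genes.

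The head module contacts Pol II directly. Its 9 genes had a median of 2.72 RPKM. *MED18*, part of the movable jaw of the head, had 458 counts and 9.99 RPKM (9.12 to 11), *MED30* had 8.62 RPKM and *MED28* 5.32 RPKM. With merged exons *MED18* was the highest of the head, and with canonical transcripts *MED30*, at 12.6 RPKM against 11 RPKM for *MED18*. *MED20*, *MED11*, *MED8*, *MED6* and *MED22* lay between 2.24 and 2.99 RPKM. *MED17*, the scaffold of the head, was the lowest, with 288 counts and 0.763 RPKM (0.68 to 0.857). Of the merged exons of *MED20* 25.3%, and of those of *MED17* 13%, overlapped other genes on the same strand in v44. Of their canonical exons 0% overlapped genes of the table on the same strand, against 13.5% in *MED6*. The part of these overlaps in the counts was not tested. The merged exons of *MED17* cover 16610 bases against 5087 in the canonical transcript, with which it had 2.49 RPKM and was again the lowest of the head.

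The middle module connects the head to the kinase module. Its 9 genes had a median of 3.96 RPKM, between 13.5 RPKM (12.6 to 14.4) for *MED4* and 1.28 RPKM (1.03 to 1.6) for *MED7*. *MED31* with 9.34 RPKM and *MED10* with 7.48 RPKM were in its upper part. *MED1*, which binds nuclear receptors, had 986 counts and 5.04 RPKM (4.74 to 5.37). *MED19*, *MED9* and *MED21* had 3.96, 2.87 and 2.08 RPKM. *MED26*, which can recruit elongation factors including P-TEFb complexes, had 326 counts and 2.69 RPKM (2.42 to 3). Of its canonical exons 45.6% overlapped other genes of the table on the same strand, and the part of this overlap in its count was not tested. *MED14*, the backbone of the complex, had 1157 counts and 5.27 RPKM (4.97 to 5.58).

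The tail module, which receives activators, had the highest median of the modules with 7.63 RPKM over 7 genes. *MED24* led with 2928 counts and 18.5 RPKM (17.9 to 19.2), and *MED16* had 1444 counts and 15.1 RPKM (14.3 to 15.8). *MED25* and *MED27* followed with 9.3 and 7.63 RPKM. In *MED27*, 25.8% of the 75-base windows also occurred elsewhere, all in a processed pseudogene on chromosome 5. *MED29* and *MED15* had 6.08 and 5.65 RPKM, but 6.5 and 17.5 RPKM with canonical transcripts. *MED23*, a target of the ELK1 and E1A activators, was far lower, with 186 counts and 1.1 RPKM (0.955 to 1.27). With the canonical transcript *MED23* remained the lowest of the tail at 1.56 RPKM, and *MED24* the highest at 37 RPKM, whereas *MED25* with 30.6 RPKM then exceeded *MED16* with 22 RPKM.

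In the order of all 48 levels with merged exons, 35 of the 47 pairs of neighbours had overlapping intervals. Overlap alone does not show that an order is unresolved by the counts. *MED13* and *MED13L* were such a pair, but the exact interval of the ratio of *MED13L* to *MED13*, 0.87 to 0.994, excluded equality. The intervals of *MED24* and *CCNC* overlapped, as did those of *POLR2A* and *POLR2I*. Steps between neighbours with intervals apart included that from *POLR2L* to *POLR2E* (2.52-fold) and from *POLR2I* to *MED24* (1.81-fold).

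The kinase module was uneven within itself. Its cyclin had by far the highest level, and each of its other positions is filled by a pair of paralogs. *CCNC* (chromosome 6, from 99542387 to 99568825) had 2357 counts and 18.5 RPKM (17.8 to 19.3), compared with 3.64 RPKM for *CDK8* and *CDK19* together, 8.35 RPKM for *MED13* and *MED13L* together and 1.64 RPKM for *MED12* and *MED12L* together. With canonical transcripts the sums were 48.2, 5.37, 18.6 and 3.74 RPKM, in the same order of genes. *CCNC* exceeded the sum of its kinases 5.08-fold with merged exons and 8.96-fold with canonical transcripts, a comparison chosen after the data were seen.

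*CDK8* was the main kinase at the level of mRNA. It lies on chromosome 13 from 26254104 to 26420982 and had 313 counts and 2.91 RPKM (2.6 to 3.25). *CDK19*, on chromosome 6 from 110609978 to 110815958, had 128 counts and 0.737 RPKM (0.62 to 0.876). Per length, *CDK8* was 3.94 times as high (exact 95% interval 3.2 to 4.88), and it was 2.45 times as high in counts alone (1.98 to 3.03).

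*MED12*, which activates the kinase, likewise prevailed over its paralog. It lies on the X chromosome from 71118543 to 71144103 and had 521 counts and 1.32 RPKM (1.21 to 1.44). *MED12L*, on chromosome 3 from 151085286 to 151437072, had 105 counts and 0.322 RPKM (0.266 to 0.39). The ratio was 4.1 (3.32 to 5.11), and 7.73 (6.26 to 9.63) with canonical transcripts.

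For *MED13* and *MED13L*, which tether the kinase module to Mediator, the order depended on the length. *MED13L*, on chromosome 12 from 115957905 to 116277693, had 3005 counts, and *MED13*, on chromosome 17 from 61942605 to 62065278, had 1246 counts. With merged exons of 32862 and 12673 bases their levels were 4.02 (3.88 to 4.17) and 4.33 RPKM (4.09 to 4.57), a ratio of 0.93 (0.87 to 0.994). With canonical transcripts of 9885 and 10461 bases the ratio turned to 2.55 (2.39 to 2.73), and with coding sequences of 6633 and 6525 bases to 2.37 (2.22 to 2.54). The coding sequences are of nearly the same length, and in counts alone *MED13L* was 2.41 times as high (2.26 to 2.58).

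**Figure D2:**
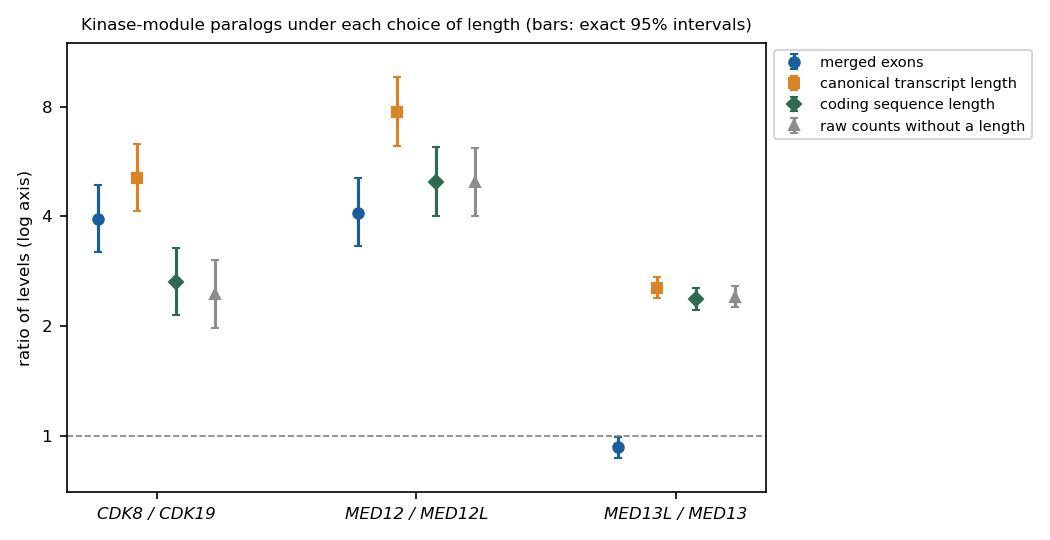
Ratio of the levels of the paralogs of each kinase-module pair on a log axis, with 4 choices of gene length and exact 95% intervals of the counts. *CDK8* over *CDK19* and *MED12* over *MED12L* lie above 1 with each choice, between 2.45 and 5.11 and between 4.1 and 7.73, whereas *MED13L* over *MED13* lies at 0.93 with merged exons and between 2.37 and 2.55 otherwise.

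Of all counts, the 15 POLR2 genes took 0.158% (0.156 to 0.16) and the 12 core subunits among them 0.157% (0.155 to 0.158). The 33 Mediator genes took 0.108% (0.107 to 0.11), so that the core of Pol II had 1.45 times as many counts as Mediator as a whole. Within Mediator, the tail took 0.0383% (0.0375 to 0.0392) and the kinase module 0.0338% (0.033 to 0.0345). The head took 0.015% (0.0145 to 0.0155) and the middle 0.0162% (0.0156 to 0.0167), each with 9 genes. The kinase module held 31.2% of the Mediator counts, most of them from *MED13L* and *CCNC*. These shares are not adjusted for length. With merged exons the kinase module had the smallest part of the 4 modules in the sum of RPKM over all genes, with 0.00771%. The head had 0.00898%, the middle 0.0116% and the tail 0.0152%, and the kinase module held 17.2% of the Mediator sum. This order depended on the length. With canonical transcripts *CCNC* had 48.2 RPKM and *MED13* and *MED13L* together 18.6 RPKM, and the kinase module exceeded the head and the middle. *POLR2A* and *POLR2B* together held 33.8% of the counts of the core subunits.

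**Figure D3:**
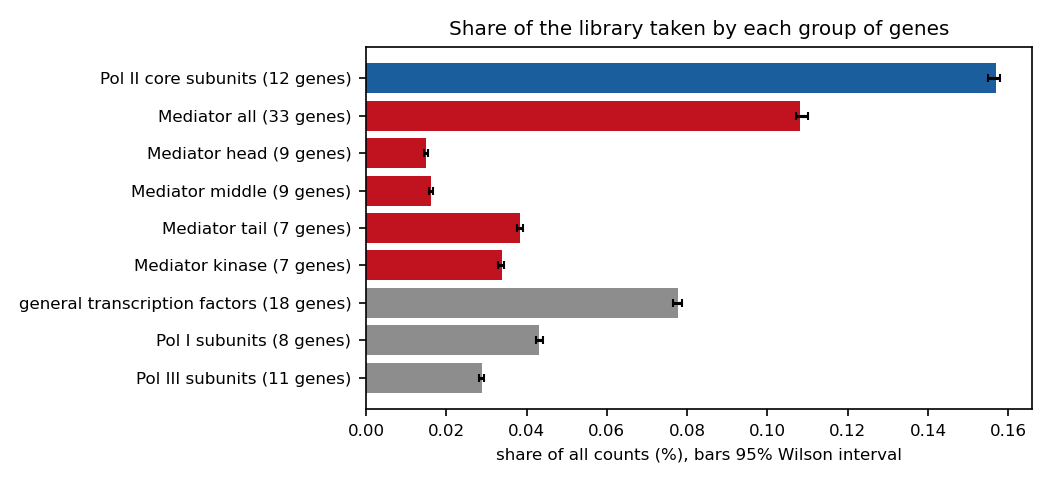
Share of all counts in percent taken by each group of genes, with bars from 0 and 95% Wilson intervals. The Pol II core stands at 0.157%, Mediator at 0.108% and the 18 listed general transcription factor genes at 0.0776%. Pol I stands at 0.0432% and Pol III at 0.0288%, both without the 5 subunits shared with Pol II. These are counted with the Pol II core, which had 0.089% without them. Of the sum of RPKM Mediator had 0.0447% and the general transcription factors 0.0474%.

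Other parts of the transcription machinery were compared by their counts and medians alone. The 18 listed general transcription factor genes, which assemble with Pol II and Mediator at the promoter, had a median of 6.37 RPKM, and 17 of them reached 1 RPKM. The list held *TBP* but none of the TAF genes, so it covers only a part of these factors. The lists of Pol I and Pol III left out the 5 shared subunits, which were counted with the Pol II core. *POLR1C* and *POLR1D* were listed under Pol I alone. The 8 Pol I genes had a median of 7.67 RPKM with all 8 at or above 1 RPKM, and the 11 Pol III genes 3.82 RPKM with 9. The Mediator median of 4.02 RPKM thus lay between those of Pol III and of the general factors with merged exons, but with canonical transcripts it was 5.37 RPKM, under the 6.05 RPKM of Pol III. The median of the Pol II core was above each of them with both lengths. Without its shared subunits this was also so, at 37.5 RPKM with merged exons and 65.9 RPKM with canonical transcripts. The subunits used by the 3 polymerases had a median of 48 RPKM over 5 genes, and the 7 that belong to Pol II alone 37.5 RPKM.

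**Figure D4:**
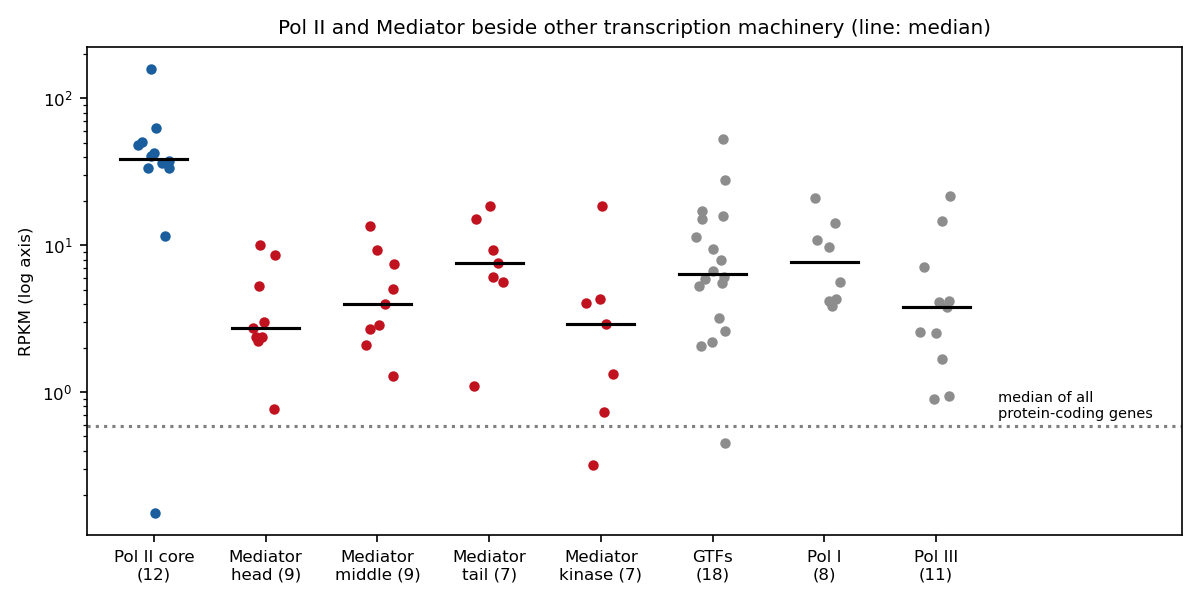
RPKM of single genes on a log axis for the Pol II core, the Mediator modules without MED14, the general transcription factors (GTFs), and the other subunits of Pol I and Pol III, with the number of genes in brackets. Lines mark medians, 38.9 RPKM for the Pol II core and between 2.72 and 7.67 RPKM for the other groups, and the dotted line the median of protein-coding genes at 0.589 RPKM.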

How the data were processed

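Poly(A)-selected RNA from 12 HCT116 samples was sequenced in single-end reads of 75 bases. According to the methods, the authors mapped reads to hg38 with ContextMap version 2.7.9 and BWA and counted them per gene, by strand, with featureCounts and GENCODE version 25. The authors deposited raw counts without normalization. As the columns were identical, the one named for DMSO replicate 1 was used. The members, roles and comparison lists were chosen with earlier results of these data known, and every member is named.

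Identifiers were matched without version to GENCODE v44 (56948 of 58037, with 99.8% of the counts), and names, lengths and overlaps were taken from it. CPM are relative to the column total of 22720718 counts. RPKM, used for every level, divide CPM by the merged exon length in kilobases. Wilson and Clopper-Pearson intervals (95%) were computed with scipy 1.17.1, and transcripts compared in windows of 75 bases with Python 3.11.15, after tests on simulated sequences. Coding stretches of the canonical transcripts were read from GENCODE v44. Other lengths, totals, thresholds and TPM were tried as alternatives. Comparisons between treatments were not made, and protein sequences were not used here.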

Additional observations from a re-analysis of the deposited data

How the results depend on the processing

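No paired analysis was possible because the columns are copies and hold no difference between samples. For this reason the planned comparisons between treatments were not run, nor were their other normalization, filter and block or the fits leaving out a replicate.

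The ratio of *MED13L* to *MED13* was 0.93 with merged exons but reversed to 2.55 with canonical transcripts, 2.37 with coding sequences and 2.41 with counts alone, which follows from the 32862 bases of merged exons in *MED13L*. The ratio of *CDK8* to *CDK19* moved from 3.94 to 5.11, 2.65 and 2.45 with the same alternatives, and that of *MED12* to *MED12L* from 4.1 to 7.73 with canonical transcripts. The median of the Pol II core moved from 38.9 RPKM to 71.9 with canonical transcripts, to 43.4 with the total of nuclear genes and to 93.2 as TPM. The Mediator median moved from 4.02 to 5.37, 4.49 and 9.65, so that the fold between these medians was 9.66 with merged exons and 13.4 with canonical transcripts. The share of the 15 POLR2 genes was 0.158% of all counts, 0.175% of protein-coding counts, 0.177% of nuclear counts and 0.134% of the sum of RPKM. That of Mediator was 0.108%, 0.12%, 0.121% and 0.0447%, and 0.0746% without the kinase module.

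The number of members at or above 1 RPKM was 42, compared with 44 with canonical transcripts, 47 at a CPM of at least 1, and 48 with at least 10 counts or at least 1 count. Canonical lengths moved the RPKM of 43 members beyond their counting intervals and kept 5 within them, and the rank correlation of the 48 levels between the length choices was 0.965 (Spearman, across genes). The intervals of *POLR2F*, with 24 counts, and *POLR2J2*, with 10 counts, overlapped, and their order was not tested. The count of *POLR2J2* is also uncertain, as 80.8% of its 75-base windows occurred in transcripts of genes elsewhere.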

Other observations

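Promoter windows of equal length around the gene start were given by RefSeq (GRCh38.p14) for 35 of the 48 members and for 15251 protein-coding genes. The median ratio of observed to expected CpG was 0.877 in the members and 0.769 in all promoters, at a GC content of 59.3% and 63%. On either strand, TATAAA, the TATA box, was present in 3 of the 35 members (8.57%) and in 9.56% of all promoters. The member promoters with these letters were those of *MED16*, *MED7* and *POLR2M*. CCGGAAG, a core of ETS factor sites, was found in 12 members (34.3%) and in 14.4% of all promoters. Among them were *POLR2C*, *POLR2D* and *POLR2F* of Pol II and *MED17*, *MED18* and *MED31* of Mediator. AAGATGGCG, which YY1 can bind, was found in *MED1*, *MED16*, *MED18* and *MED25*, or 11.4% of the members and 2.81% of all promoters. GCATGCGC, part of the NRF1 motif, was found in *MED18*, *POLR2F* and *POLR2J2*, or 8.57% and 4.27%. These are matches of letters, and no binding was measured.

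The members were spread over 19 chromosomes. Chromosome 17 held 7 of them, *POLR2A* and 6 Mediator genes, and chromosome 19 held 6, *POLR2E*, *POLR2I*, *MED16*, *MED25*, *MED26* and *MED29*. Across the 33 Mediator genes the Spearman correlation of RPKM with the length of the canonical transcript was -0.324, and across the 8754 protein-coding genes at or above 1 RPKM it was -0.314. Genes are not independent replicates, and RPKM is itself computed with a length.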
